A study of Arabidopsis thaliana with 8 samples.

Results

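Of the 28642 loci in the deposited table, 1290 nuclear loci carry an exon length of 0. The rule that picks them uses that annotation alone, after leaving out loci of the mitochondrial and plastid genomes, and no measured value. Earlier results of these data were known when it was set. The reference gene table gave all 1290 a class, and nearly all are non-coding: 623 transfer RNA (tRNA) loci, 221 long non-coding RNA (lncRNA) loci, 177 microRNA (miRNA) primary transcripts, 170 other non-coding RNA (ncRNA) loci, 71 small nucleolar RNAs (snoRNAs), 13 spliceosomal small nuclear RNAs (snRNAs), 8 pseudogenes, 4 ribosomal RNAs (rRNAs) and 3 antisense RNAs. Because they have no exon length, their exon reads and RPKM values (reads scaled by exon length and library size) are 0 in every library, and none of the authors' 6 pairwise tests gave any of them a false discovery rate below 1. Their reads appear in the gene read columns, which are used here.

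The libraries came from whole 14-day-old seedlings of Arabidopsis thaliana, strain Landsberg erecta. Seedlings were either WT (wild type) or smn2 -/-, and were sampled after 0 h or 4 h of 0.1 µM flg22, a flagellin fragment that triggers immune signalling. Each of the 4 groups has 2 biological replicates, numbered 910 and 918. Libraries are named below by genotype, hour and number, so WT4-910 is replicate 910 of WT at 4 h and smn0-918 is replicate 918 of smn2 at 0 h. No group without flg22 at 4 h was analysed here, so a 4 h change combines the peptide with time and handling. SMN2 is HEN2, which is background knowledge and not in the labels, and the labels do not name the smn2 lesion.

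HEN2 is an RNA helicase of the plant nucleoplasm that feeds transcripts to the nuclear RNA exosome, a complex that degrades RNA from its 3′ end. Substrates of that pathway are often given a short poly(A) tail, so a poly(A)-selected library can catch RNAs that have no tail when mature, such as snoRNAs and spliceosomal U6 RNA. Whether the RNAs read here carried a tail was not measured. The RNAs of these loci work in splicing (snRNAs), in modifying rRNA (snoRNAs), in silencing mRNAs (miRNAs) and in translation (tRNAs), and many lncRNA loci lie antisense to protein-coding genes.

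The libraries held 6856882 to 15791296 gene reads, and levels are given below as CPM, counts per 1000000 gene reads after TMM scaling. HEN2 itself was read at 34.7 and 32.0 CPM in WT at 0 h, 55.7 and 50.01 in WT at 4 h, 10.6 and 9.71 in smn2 at 0 h and 11.95 and 15.1 in smn2 at 4 h, each pair in the order 910, 918. All smn2 libraries lay below all WT libraries (log2 difference -1.84 ± 0.14 SE, edgeR adjusted p = 0.000318). Shoot markers RBCS1A and RCA (lowest 619 and 618 CPM) and root markers PYK10 and SULTR1;2 (lowest 719 and 68.3 CPM) were present in every library, while the root marker IRT1 did not exceed 1.21 CPM.

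The sequences that carry the largest differences between genotypes are shown first, as read from the RefSeq assembly TAIR10.1. The U6acat locus (chr5:16166180-16166387, minus strand) encodes the minor spliceosome's counterpart of U6, the RNA at the active site of the spliceosome, and includes bases upstream of the RNA.
U6acat: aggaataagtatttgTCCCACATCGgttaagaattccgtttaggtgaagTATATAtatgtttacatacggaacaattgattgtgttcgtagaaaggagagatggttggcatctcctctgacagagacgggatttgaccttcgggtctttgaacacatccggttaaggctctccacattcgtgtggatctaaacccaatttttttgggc
The 100 bases upstream of the U6 RNAs (chr3:4951497-4951596, chr3:4561012-4561111 and chr5:18787297-18787396, all plus strand) are given beside those of the U2 locus U2.5 (chr5:2974914-2975013, plus strand), because U6 and U6acat rose in smn2 and no U2 locus did. Capitals mark TATATA and TCCCACATCG, the longest run common to the U6-26, U6-29 and U2.5 windows and the U6acat locus, which has the letters of the upstream sequence element of plant snRNA genes.
U6-1 upstream: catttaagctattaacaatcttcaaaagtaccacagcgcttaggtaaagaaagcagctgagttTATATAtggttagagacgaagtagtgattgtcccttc
U6-26 upstream: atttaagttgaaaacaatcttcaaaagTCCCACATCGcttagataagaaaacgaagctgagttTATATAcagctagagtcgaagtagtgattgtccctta
U6-29 upstream: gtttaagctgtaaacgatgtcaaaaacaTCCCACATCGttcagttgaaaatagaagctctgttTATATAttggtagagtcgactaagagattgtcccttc
U2.5 upstream: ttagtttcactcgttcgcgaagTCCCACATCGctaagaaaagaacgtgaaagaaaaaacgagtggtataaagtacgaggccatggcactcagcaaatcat
The 2 motifs stand 26 bases apart at U6-26, 25 at U6-29 and 24 at U6acat; the U6-1 window lacks the exact TCCCACATCG and the U2.5 window lacks TATATA. On either strand, TCCCACATCG is found in 0.107% and TATATA in 17% of the 100-base windows upstream of the RefSeq starts of 28008 nuclear loci, and in 5 and 2 of those of the 13 snRNA loci. The windows of U6-1, U6-26 and U2.5 lie upstream of their RefSeq starts, and that of U6-29 was placed by its match to the U6 RNA, inside the RefSeq locus. A match is a description of the letters only.

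The 4 snoRNAs that rose in smn2 all hold TGATGA and CTGA, the letters of the C and D boxes that bind the methylation complex, and these are in capitals (chr1:10151668-10151774, minus; chr5:26567370-26567453, plus; chr1:875358-875471, minus; chr1:6697438-6697524, plus).
SNOR105: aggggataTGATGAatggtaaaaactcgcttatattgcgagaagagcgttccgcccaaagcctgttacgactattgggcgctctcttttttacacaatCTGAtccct
AT5G66562: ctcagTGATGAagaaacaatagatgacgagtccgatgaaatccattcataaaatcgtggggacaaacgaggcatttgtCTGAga
AT1G03502: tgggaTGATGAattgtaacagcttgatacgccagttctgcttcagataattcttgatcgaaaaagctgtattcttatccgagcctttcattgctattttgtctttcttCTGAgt
AT1G19376: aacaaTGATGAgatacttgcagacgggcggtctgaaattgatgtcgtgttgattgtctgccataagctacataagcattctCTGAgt
Both letter strings stand on one strand in 61 of the 71 snoRNA loci (85.9%), so they do not set these 4 apart; in the first 100 bases by coordinate of 26692 protein-coding loci the share was 4.17%. Mature miRNAs made from the primary transcripts discussed below are given with the seed (bases 2 to 8) in capitals, and no seed is shared among them (chr4:15415491-15415510, minus; chr2:11942918-11942938, minus; chr5:4694778-4694798, plus). The RNA is read at the primary transcript's locus, so these libraries do not measure the mature form.
miR156c-5p: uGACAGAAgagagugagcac
miR172a: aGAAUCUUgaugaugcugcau
miR398c-3p: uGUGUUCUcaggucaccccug

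Reads were found on 946 of the 1290 loci, and 373 had at least 1 read in all 8 libraries. The 1290 loci took 27.2% to 44.8% of the gene reads of a library, but 97.9% to 99.1% of these lay on the 4 rRNA loci, 87.7% of them on AT3G41768. Without rRNA they held 34389 to 58097 reads per library, 0.507% to 1.29% of the gene reads off the rRNA. At the same time and replicate number, that share was always higher in smn2: 0.816% against 0.507% at 0 h and 0.658% against 0.551% at 4 h in replicate 910, and 1.29% against 0.752% and 1.05% against 0.727% in replicate 918. The share also differed between the replicates, which were sequenced in different runs per the file headers.

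Levels differed widely between classes. Beside rRNA, the ncRNA class was the most abundant (1471 to 3733 CPM summed), led by AT1G16635 and AT4G13495, followed by snoRNAs (695 to 2617 CPM), led by AT3G21805 and AT1G75163, and lncRNAs (534 to 1356 CPM), led by AT5G15022. The miRNA, tRNA and snRNA classes each stayed between 54.6 and 280 CPM. Summed snoRNA CPM overlapped between genotypes, since WT at 0 h held 695 and 1414 CPM and smn2 at 0 h 1186 and 2617 CPM. Among the 623 tRNA loci, 269 had no read at all and 487 averaged under 1 read per library. Only 9.72% of tRNA reads and 1.75% of rRNA reads were uniquely placed, against 97.0% for snoRNAs and 96.7% for ncRNAs. Genes for tRNA and rRNA exist in near-identical copies, and the part of this in the low shares was not tested.

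**Figure D1:**
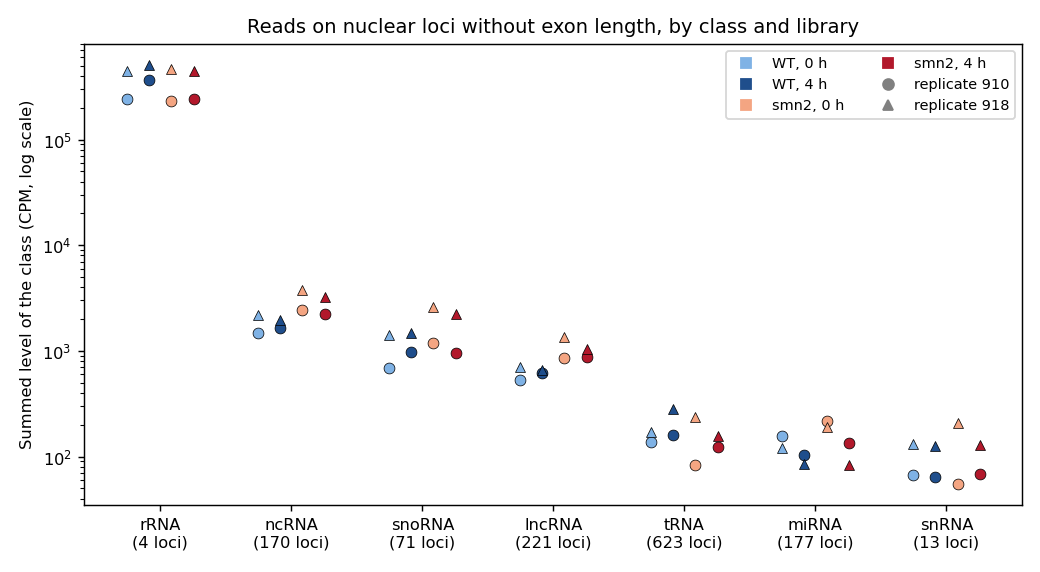
Summed level of each class in CPM (log axis) in the 8 libraries, coloured by group, with circles for replicate 910 and triangles for replicate 918. The rRNA class lies far above the others, and for snoRNAs and snRNAs the 918 libraries lie above the 910 libraries of the same group.

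The question of the genotype comparison was which RNAs accumulate when HEN2 is reduced. Of the 311 loci with enough reads to test, 28 were higher and 1 was lower in smn2 over both times (edgeR quasi-likelihood test, Benjamini-Hochberg adjusted p under 0.05 over all loci tested). Over all 19649 tested loci, 1.44% were higher and 0.361% lower, or 1.8% in either direction. The 28 comprised 13 lncRNAs of 102 tested, 5 ncRNAs of 77, 4 snRNAs of 13, 4 snoRNAs of 46 and 2 miRNA transcripts of 28; none of the 40 tRNAs, 4 rRNAs or 1 pseudogene passed. At an unadjusted p under 0.05 the edgeR test had 2 tRNAs and 0 rRNAs, beside 12.6% of all tested loci. DESeq2 called 0 of either class. With the replicate number as a block, 48 loci were higher and 1 lower. The median log2 difference of the 311 was 0.31, beside -0.02 over all tested loci, and by class it was 0.75 for miRNA transcripts, 0.61 for snoRNAs, 0.47 for snRNAs, 0.46 for lncRNAs, 0.20 for ncRNAs and -0.31 for tRNAs. Each tested locus had to pass a filter on low counts, which a locus can pass through the genotype where it is high.

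The 28 raised loci were read higher in smn2 in all 4 pairs of libraries of the same time and replicate number, and in each the 4 smn2 libraries lay above the 4 WT libraries. Such a separation was seen in 3.05% of all tested loci upwards and 1.65% downwards, and in 44 and 3 of the 311. Their log2 differences ran from 1.03 to 5.06, with a median of 2.20. They had a median locus length of 2161 bp, beside 828 bp for the 282 tested loci that did not pass and 82 bp for all 1290, and a median of 51.3 reads per library beside 24.8 and 0.625. All 19649 tested loci had medians of 2228 bp and 110 reads per library. At 15 of the 28 raised loci (53.6%) the locus overlaps another annotated locus, beside 38.7% of the 282 and 16.6% of all tested loci. Of the 29 calls, 9 held when any 1 library was left out: AT1G44125, AT1G64563, AT1G79529, GUT15, AT2G18735, U6-1, U6-26, MIR156c and the lower AT2G06002.

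**Figure D2:**
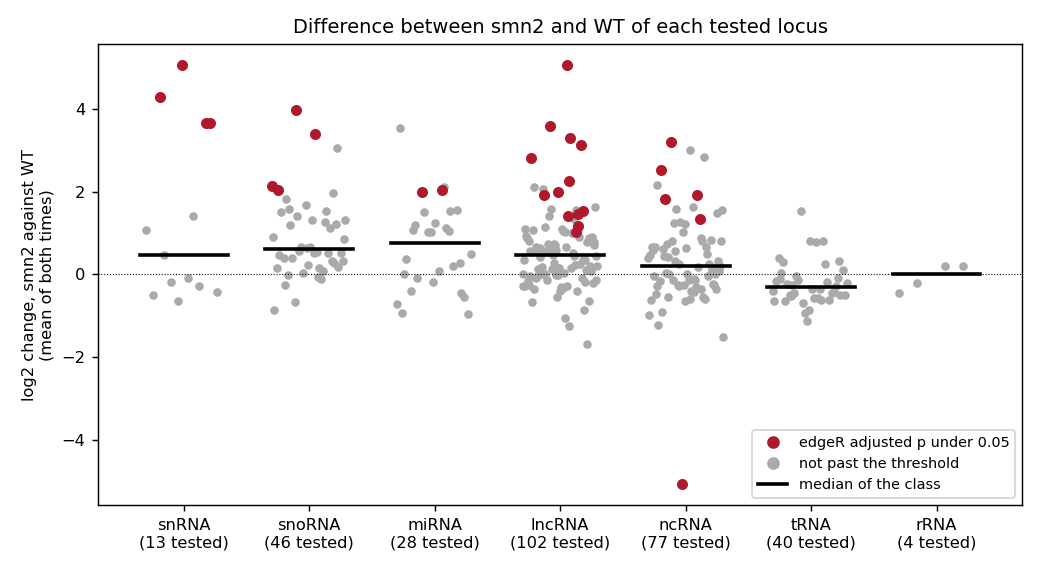
Log2 difference between smn2 and WT, mean of both times, for each tested locus by class, with red points past the threshold and black bars at the class medians. The 4 raised snRNA loci stand apart from the other 9, and no tRNA locus is red.

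Among the spliceosomal RNAs, all 3 loci of U6 and the locus of U6acat rose in smn2, and none of the other 9 passed. U6-1, the U6 locus with the most reads, had WT levels in CPM of 0.215 and 0.691 (0 h) and of 1.47 and 0 (4 h), against smn2 levels of 12.7 and 26.7 (0 h) and of 17.6 and 19.7 (4 h). The genotypes did not overlap (log2 difference 5.05 ± 0.54 SE, edgeR adjusted p = 0.00149). Without WT4-910, which held most of the WT reads at 4 h, the difference was 8.04. U6-26 (3.65 ± 0.45, adjusted p = 0.00363) and U6-29 (3.66 ± 0.71, adjusted p = 0.0328) differed the same way; without WT4-910 they differed by 4.57 and 5.94. Few reads of the 3 loci were uniquely placed, so their sum is given too. It leaves out reads given to genes that overlap U6-1 or U6-26. The sum was 8 and 13 reads in WT at 0 h and 27 and 1 in WT at 4 h, against 219 and 220 in smn2 at 0 h and 250 and 161 in smn2 at 4 h. Every smn2 library held more U6 reads than all WT libraries together, and the sum of the 3 loci differed by 4.55 ± 0.51 (edgeR adjusted p = 0.00212). Between 0 and 29 of these reads per library were uniquely placed. U6-26 overlaps AT3G13857, a protein-coding locus on the same strand, which also rose (3.09 ± 0.38, adjusted p = 0.00345), with at most 8 uniquely placed reads in a library. That locus had 28, 13, 17 and 18 reads in WT and 313, 55, 136 and 57 in smn2 (0 h, then 4 h), which the sum leaves out. U6-26 also overlaps LBD22 and HSP60-3A, and U6-1 overlaps AT3G14730 and AT3G14740. HSP60-3A, AT3G14730 and AT3G14740 had -0.20, -0.36 and -0.29 and did not pass. The U6-29 call was lost without any of WT0-910, WT4-910, WT4-918, smn0-918, smn4-910 or smn4-918 (adjusted p up to 0.161), and without WT0-918 its difference was 4.45.

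U6acat, whose reads were all uniquely placed, had 5 reads in the 4 WT libraries and 67 in the 4 smn2 libraries. Its levels were 0.0537 and 0 CPM in WT at 0 h, 0.105 and 0.397 in WT at 4 h, 1.34 and 3.03 in smn2 at 0 h and 1.74 and 2.44 in smn2 at 4 h. No smn2 library fell to the WT range (log2 difference 4.28 ± 0.65 SE, edgeR adjusted p = 0.0108). The ratio of pooled reads was 18.1, with a 95% counting interval of 7.40 to 57.7. Without WT4-910 the adjusted p was 0.0606, and without WT0-910 the difference was 5.13. The 6 loci of U2, the RNA that pairs with the intron branch point, lay between -0.65 (U2.7) and -0.10 (U2.5) and none passed the test. U1.5, U12 and U4.2 stood at 1.06, 1.42 and 0.47 with adjusted p of 0.589, 0.541 and 0.662. Summed over its 6 loci, U2 was at 53.5 and 64.4 CPM in WT and 25.5 and 34.0 CPM in smn2 among the 910 libraries, and between 85.3 and 134 CPM in all 918 libraries.

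Over both times, most tested snoRNAs had a higher level in smn2, though few passed alone. Of the 46 tested, 40 had a log2 difference above 0 and 19 were higher in all 4 pairs (41.3%, beside 12.4% of all tested loci), while 4 passed the test. At 0 h the median was 0.98 with 42 of 46 above 0, at 4 h it was 0.36 with 33 above 0, and at neither time alone did a snoRNA pass in edgeR. At an unadjusted p under 0.05 the edgeR test had 16 snoRNAs at 0 h and 8 at 4 h. Over all tested loci, 10.2% and 7.94% were under that p. DESeq2 called 5 and 2 snoRNAs, with no share over all loci given. At 4 h the summed class was at 947 CPM in smn4-910 and 980 CPM in WT4-910, and at 2251 and 1477 CPM in replicate 918. SNOR105 was at 0.268 and 0.889 CPM in WT at 0 h, 0.105 and 0.397 in WT at 4 h, 2.10 and 10.9 in smn2 at 0 h and 2.499 and 8.13 in smn2 at 4 h. The genotypes did not overlap, although the smn2 replicates differed severalfold (3.97 ± 0.75, edgeR adjusted p = 0.0295). AT1G03502 (2.14 ± 0.40, adjusted p = 0.027) rose from 1.19 to 3.67 CPM over the WT libraries to 4.10 to 14.6 CPM over the smn2 libraries. AT1G19376 (2.04 ± 0.38, adjusted p = 0.0265) went from 0.629 to 2.47 CPM to 4.02 to 10.3 CPM. Neither of these overlapped between genotypes.

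AT5G66562 (3.40 ± 0.62, adjusted p = 0.0251) had 8 reads in WT and 59 in smn2, a pooled ratio of 9.98 with a counting interval of 4.75 to 24.2. It lies 68 bp from AT5G66564, which is 96.4% identical over 84 bases, and 207 bp from AT5G66567. These neighbours had differences of 1.82 and 1.96 with adjusted p of 0.201 and 0.395. AT1G19373, 185 bp from AT1G19376, had 0.64 (adjusted p = 0.581). The 4 snoRNA calls were sensitive to single libraries: SNOR105 lost its call without any of WT0-910, WT0-918, WT4-910, WT4-918 or smn4-918 (adjusted p up to 0.151) and had a difference of 3.18 without smn0-918. AT1G19376 lost it without WT0-910, WT4-910, smn0-918, smn4-910 or smn4-918 (up to 0.111). AT1G03502 lost it without any library but WT4-910 and smn0-918 (up to 0.116), and AT5G66562 without any but smn0-910 (up to 0.103), with differences of 4.64 and 4.04 without WT0-910 and WT4-910. U3B and U3D, copies of the U3 RNA that guides cleavage of the rRNA precursor, had differences of 1.53 and 1.41, did not pass, and had almost no uniquely placed reads.

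**Figure D3:**
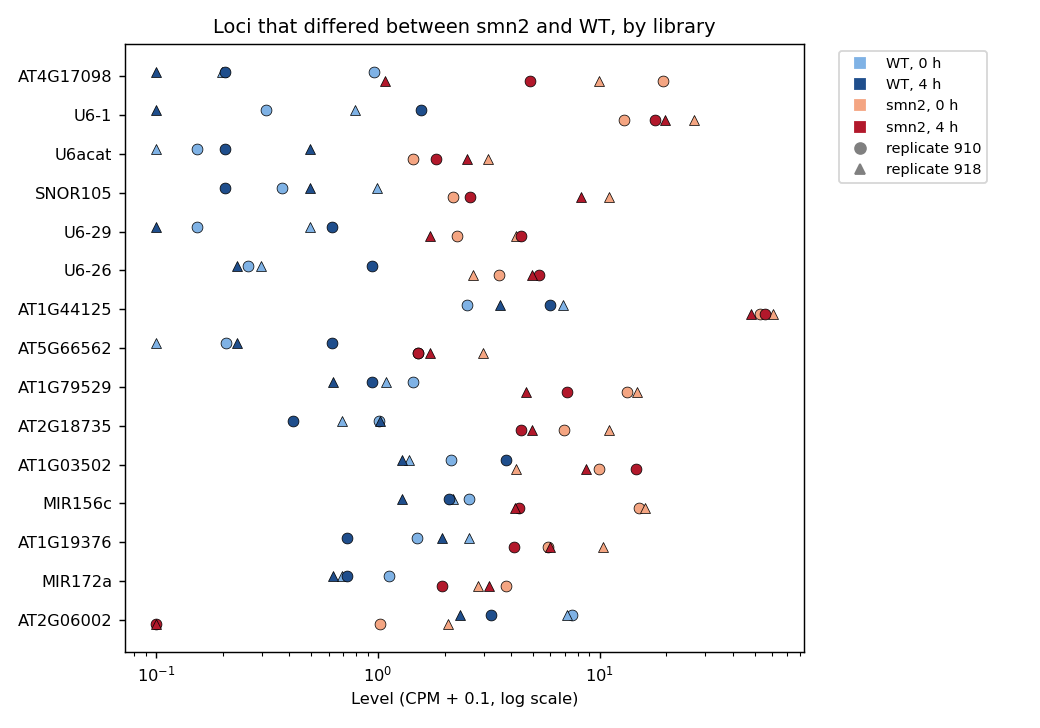
Level of each locus (CPM + 0.1, log axis) in the 8 libraries for the 10 largest increases in smn2, the other raised snoRNA and miRNA loci, and the 1 locus that fell. Blue WT points lie left of orange and red smn2 points in every row except the lowest, AT2G06002, where the order is turned; points at the left edge are libraries with 0 reads.

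Of the 28 miRNA primary transcripts tested, 2 passed: MIR156c, whose miR156 holds plants in the juvenile phase, and MIR172a, whose miR172 acts in the opposite direction on that phase change. MIR156c was at 2.47 and 2.07 CPM in the WT libraries of 0 h and 1.99 and 1.19 in WT at 4 h, against 14.9 and 15.9 in smn2 at 0 h and 4.24 and 4.06 in smn2 at 4 h. The replicates lay close together and the genotypes did not overlap at either time (2.05 ± 0.23 SE over both times, edgeR adjusted p = 0.00185). MIR172a was at 0.529 to 1.02 CPM in the WT libraries and 1.85 to 3.69 CPM in the smn2 libraries (1.99 ± 0.38, adjusted p = 0.0317). All reads of both loci were uniquely placed. MIR172a lost its call when any library but smn0-918 was left out (adjusted p up to 0.137). The deposited loci of MIR156c and MIR172a are 2555 and 1944 bp long, so their reads can come from the whole primary transcript.

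Other miRNA transcripts did not pass. MIR159b, from which a regulator of MYB factors is made, was at 1.68 to 3.76 CPM in WT and 3.09 to 15.8 CPM in smn2 (2.10 ± 0.45, edgeR adjusted p = 0.0543, and 0.00492 with the replicate block). Of the families looked up, 2 of 8 MIR156, 5 of 7 MIR166, 2 of 4 MIR167, 2 of 3 MIR164 and 1 of 5 MIR172 loci had enough reads to test, and no MIR160, MIR162, MIR393 or MIR403 locus had. The trans-acting siRNA precursors TAS1A, TAS1B, TAS1C, TAS2 and TAS3, from which secondary small RNAs that silence other mRNAs are cut, had differences of -0.13, -0.62, -0.25, -0.98 and 0.66, and none passed (adjusted p of at least 0.258).

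The 13 raised lncRNA loci each overlap a protein-coding gene on the opposite strand. No source used here says whether counting used strand. A read that falls in both loci was assigned to one or the other: over 733 library values of 126 overlapping pairs with at least 50 such reads, the share given to a locus followed its part of the uniquely placed reads plus 1, with a median difference of 1.57 percentage points and 91% of values within 10 points. The level of an overlapping locus therefore rests partly on a few uniquely placed reads, and the sum over the overlap is given beside it. With overlapping loci summed, 8 of the 13 lncRNA calls held and 5 did not.

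For the lncRNA locus AT1G44125, WT levels were 2.42 CPM (WT0-910), 6.72 CPM (WT0-918), 5.87 CPM (WT4-910) and 3.44 CPM (WT4-918). Its smn2 levels were 53.0 CPM (smn0-910), 60.5 CPM (smn0-918), 55.4 CPM (smn4-910) and 48.1 CPM (smn4-918). The genotypes lay far apart (3.57 ± 0.30, edgeR adjusted p = 0.000415). AT1G44120, on the other strand, also rose (2.69 ± 0.35, adjusted p = 0.00467), and their sum differed by 3.19 ± 0.18 (adjusted p = 3.47e-05). With 0.541% of reads of AT1G44125 uniquely placed, the strand that rose cannot be told apart.

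AT1G79529 was at 0.529 to 1.34 CPM in the 4 WT libraries and at 13.2, 14.7, 7.06 and 4.55 CPM in smn2 (3.29 ± 0.27, edgeR adjusted p = 0.000388). Here 77% of reads were uniquely placed. It lies opposite GAPCP-1, a plastid glyceraldehyde-3-phosphate dehydrogenase, which also rose (1.35 ± 0.14, adjusted p = 0.00135), and their sum differed by 1.43 (adjusted p = 0.000986). AT1G71528, AT3G59068 and AT2G33051 rose by 3.12, 2.82 and 1.92, and their partners AT1G71530, AT3G59070 and RLP26, a receptor-like protein, rose by 0.88, 4.82 and 0.92. Their sums differed by 1.16, 3.67 and 1.19 (edgeR adjusted p = 0.00813, 0.000594 and 0.0118), and AT2G33051 by 2.82 with uniquely placed reads. Only 0.408% of the reads of AT1G71528 were uniquely placed, so its 3.12 rests on how shared reads were divided. AT1G71530 had 28, 19, 15 and 12 uniquely placed reads in WT and 2, 5, 15 and 4 in smn2 (0 h, then 4 h). AT3G59068 lost its call when any library but smn0-918 was left out (adjusted p up to 0.0914). AT1G71528 and AT2G33051 lost theirs without WT4-910 or WT4-918 (up to 0.0681 and 0.0558).

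AT4G17098 had the largest difference of all 28 loci, 5.06 ± 0.73 (edgeR adjusted p = 0.00811), with 0.859, 0.0988, 0.105 and 0 CPM in WT and 19.2, 9.86, 4.78 and 0.975 CPM in smn2. The highest WT and the lowest smn2 library lay close together. Its partner AT4G17100 had 0.21 (adjusted p = 0.719) and their sum 0.43 (adjusted p = 0.353). The call of AT4G17098 was lost without WT4-910 (difference 6.30, adjusted p = 0.0571), WT4-918 (adjusted p = 0.0598) or smn4-910 (4.25, adjusted p = 0.083), and without WT0-910 the difference was 6.21. AT5G06865 rose by 2.26, while PGIP1, an inhibitor of pathogen polygalacturonases opposite it, had -0.36, and their sum had -0.10 (adjusted p = 0.872), which turns the direction; with uniquely placed reads it did not pass (adjusted p = 0.0843). AT5G15845, opposite COL1, a CONSTANS-like gene, rose by 2.0 and the sum had 1.04 (adjusted p = 0.177), against 3.13 with uniquely placed reads (adjusted p = 0.0118). AT5G06865 lost its call without WT0-918, WT4-918 or smn4-910 (up to 0.0829), and AT5G15845 without WT4-910, WT4-918, smn0-910, smn4-910 or smn4-918 (up to 0.16), with a difference of 2.62 without WT0-910. The other 5 lncRNA loci, AT1G33415, AT2G42365, AT3G63445, AT5G18255 and AT5G66558, rose by 1.03 to 1.54, and each lost its call without WT4-918, among other libraries for 3 of them (adjusted p up to 0.193). With overlaps summed, the differences at AT1G33415, AT2G42365 and AT3G63445 were 1.08, 1.282 and 1.20 and passed, while those at AT5G18255 and AT5G66558 were 0.48 (adjusted p = 0.21) and 0.43 (adjusted p = 0.278). AT2G42365 did not pass with uniquely placed reads (adjusted p = 0.219).

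**Figure D4:**
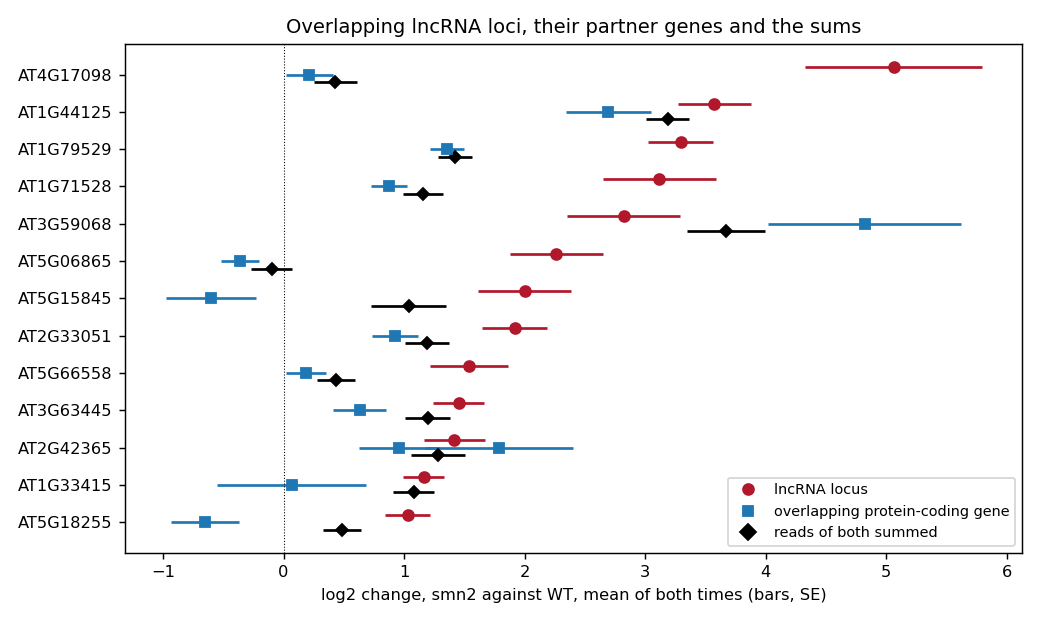
Log2 difference between smn2 and WT, mean of both times, for the 13 raised lncRNA loci, for their partners, and for the reads of all overlapping loci summed (black diamonds), with standard errors. The sum stays near the locus at AT1G44125 and falls toward 0 at AT4G17098 and AT5G06865.

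The raised ncRNA loci do not overlap other loci, so their reads are not divided. GUT15, a transcript without a long reading frame, was the most abundant of them, at 110 and 150 CPM in WT at 0 h, 103 and 113 in WT at 4 h, 333 and 319 in smn2 at 0 h and 253 and 298 in smn2 at 4 h. All smn2 libraries lay above all WT libraries (1.34 ± 0.16, edgeR adjusted p = 0.00298). AT2G18735 went from 0.315 to 0.926 CPM over the WT libraries to 4.35 to 10.9 CPM over the smn2 libraries (3.20 ± 0.35, adjusted p = 0.00185). AT1G64563 (1.91, adjusted p = 0.00203), AT4G02005 (1.81, adjusted p = 0.00738) and AT4G30975 (2.51, adjusted p = 0.0131) also rose. AT4G02005 lost its call without WT4-910 (adjusted p = 0.0558), and AT4G30975 without WT4-910, WT4-918 or smn4-910 (up to 0.0736), with a difference of 3.22 without WT0-910. AT4G30975 ends 18 bp from MIR156b, which had 28 reads in all.

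AT2G06002 was the 1 locus that fell. It was at 7.41 and 7.01 CPM in WT at 0 h, 3.15 and 2.25 in WT at 4 h, 0.922 and 1.97 in smn2 at 0 h and 0 in both smn2 libraries at 4 h. All its reads were uniquely placed, and the genotypes did not overlap (edgeR adjusted p = 0.00363). At 4 h it was at least 14.1-fold lower in smn2, taking 3 reads over the group as the floor. It lies 563461 bp from HEN2 on chromosome 2, and the part of that linkage in the difference was not tested.

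No tRNA or rRNA locus passed the test. Of the 40 tRNAs tested, 10 had a log2 difference above 0, none was higher in all 4 pairs and 2 (5%) were lower in all 4. Over all tested loci, 12.4% were higher in all 4 pairs and 12.8% lower in all 4. The most abundant tRNA locus, AT2G07762, had -0.94 (edgeR adjusted p = 0.574), and AT2G07743 had 0.77 (adjusted p = 0.476). Neither had a uniquely placed read, so the copy or genome their reads came from is not known. AT2G07762 held 23.1% of the reads of the tRNA class. The 4 rRNA loci had differences between -0.44 and 0.21. Most reads of both classes are not uniquely placed, so single loci are uncertain.

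At 0 h, 12 of the 311 loci were higher in smn2 and 0 lower, where 0.733% and 0.27% of all tested loci were. With the replicate block 27 were higher and 1 lower, and DESeq2 called 31 in all, with no share over all loci given for either. The 12 were AT1G44125, AT1G64563, AT1G71528, AT1G79529, GUT15, AT2G18735, U6-26, U6-1, AT4G02005, AT4G17098, MIR156c and U6acat. Of the calls that held over both times with any 1 library left out, only AT1G44125 and AT1G79529 also held so at 0 h. With overlaps summed, AT1G71528 (1.14, adjusted p = 0.061) and AT4G17098 (0.59, adjusted p = 0.448) did not pass at 0 h, and AT4G17098 did not with uniquely placed reads (adjusted p = 0.0776). Without WT0-910, WT0-918, WT4-910 or WT4-918 the count was 4, 2, 7 and 7. At 4 h, U6-1 (4.52), AT1G44125 (3.46) and AT1G79529 (3.05) were higher and AT2G06002 was lower, against 0.28% and 0.0305% of all tested loci. With the block, 12 were higher and 1 lower at 4 h. Without WT4-910, WT4-918, smn4-910 or smn4-918 the count of 4 became 0, 0, 0 and 1, and without smn0-918 it was 7. The sum of the 3 U6 loci did not pass at 4 h (4.07, edgeR adjusted p = 0.0576), nor did U6-1 in DESeq2 (adjusted p = 0.0676) or with uniquely placed reads (adjusted p = 0.192). The U6-1 difference at 4 h was 10.53 without WT4-910 and 3.65 without WT4-918.

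The 4 h comparison within each genotype asked which of these RNAs move after flg22. In WT, 4 loci were higher and 11 lower at 4 h, or 1.29% and 3.54% of the 311, where 10.1% and 6.56% of all tested loci were, or 16.7% in either direction. In smn2, 8 were higher and 12 lower, or 2.57% and 3.86%, where 12.6% and 8.88% of all tested loci were, or 21.5% in either direction. In both genotypes the calls lay on lncRNA, ncRNA and miRNA loci. No snoRNA, snRNA, tRNA or rRNA passed in edgeR or DESeq2. At an unadjusted p under 0.05 the edgeR test had 1 snoRNA in WT and 4 in smn2. Over all tested loci, 30.8% in WT and 34.8% in smn2 were under that p. In all, 27 loci passed in either genotype and 8 in both. Without WT0-910, WT4-910 or WT4-918 the WT count of 15 became 4, 7 and 5, and without smn4-910 or smn4-918 the smn2 count of 20 became 13. With the block the WT count was 23.

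MIR398c, the transcript of a miRNA that targets copper/zinc superoxide dismutase mRNAs, fell in both genotypes. It was at 38.5 and 48.7 CPM in the WT libraries of 0 h and 20.9 and 15.5 at 4 h, and at 55.5 and 61.4 CPM in smn2 at 0 h and 22.1 and 18.0 at 4 h. No 4 h library reached a 0 h library (-1.26 ± 0.22, edgeR adjusted p = 0.00529 in WT; -1.54 ± 0.23, adjusted p = 0.0015 in smn2). It overlaps NRT2.7, a nitrate transporter gene, and 11% of its reads were uniquely placed; the sum fell by 0.89 in WT and by 1.56 in smn2. The WT adjusted p was 0.052 without WT4-918 and 0.112 with uniquely placed reads. MIR156c fell in smn2 (-1.89 ± 0.30, adjusted p = 0.00209) and had -0.50 in WT (adjusted p = 0.367). MIR414 fell in smn2 (-1.50 ± 0.32, adjusted p = 0.0103) and had -0.998 in WT (adjusted p = 0.0581); without smn0-910, smn4-910 or smn4-918 the smn2 call was lost (up to 0.0772).

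AT2G07042 was at 1.83 and 2.07 CPM in WT at 0 h and at 0 in both WT libraries at 4 h, at least 10.9-fold lower (edgeR adjusted p = 0.0043). In smn2 it was at 0.419, 0.303, 0.109 and 0.163 CPM, already low at 0 h. This locus lies 18875 bp from HEN2. AT2G06002 was at least 6.63-fold lower at 4 h in smn2 (adjusted p = 0.00649). AT1G11175 fell in WT (-2.84, adjusted p = 0.00943) and had -1.60 in smn2 (adjusted p = 0.0741); its WT call was lost without WT4-910 or WT4-918 (up to 0.0718).

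AT3G44798 rose in both genotypes, from 22.3 and 24.6 to 47.3 and 47.2 CPM in WT and from 19.9 and 16.8 to 36.7 and 35.8 CPM in smn2. The replicates lay close together and no 4 h library overlapped a 0 h library (1.01 ± 0.18, edgeR adjusted p = 0.00529; 0.98 ± 0.18, adjusted p = 0.00545). The WT call was lost without WT0-910 (adjusted p = 0.0524). AT3G46658 rose in smn2 from 1.76 and 0.91 to 11.4 and 23.7 CPM (3.62 ± 0.48, adjusted p = 0.000837) and had 1.12 in WT (adjusted p = 0.114). It lies opposite UGT76E12, a glycosyltransferase gene, and 4.3% of its reads were uniquely placed. UGT76E12 had 6 and 7 reads in WT at 0 h and 228 and 249 at 4 h, and 22 and 11 reads in smn2 at 0 h and 111 and 57 at 4 h. Their sum rose in both genotypes, by 3.52 in WT (adjusted p = 0.000198) and by 3.15 in smn2 (adjusted p = 0.000192), and the difference between these changes was -0.38 and did not pass. Its smn2 difference was 4.24 without smn0-910 and 3.02 without smn4-918.

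**Figure D5:**
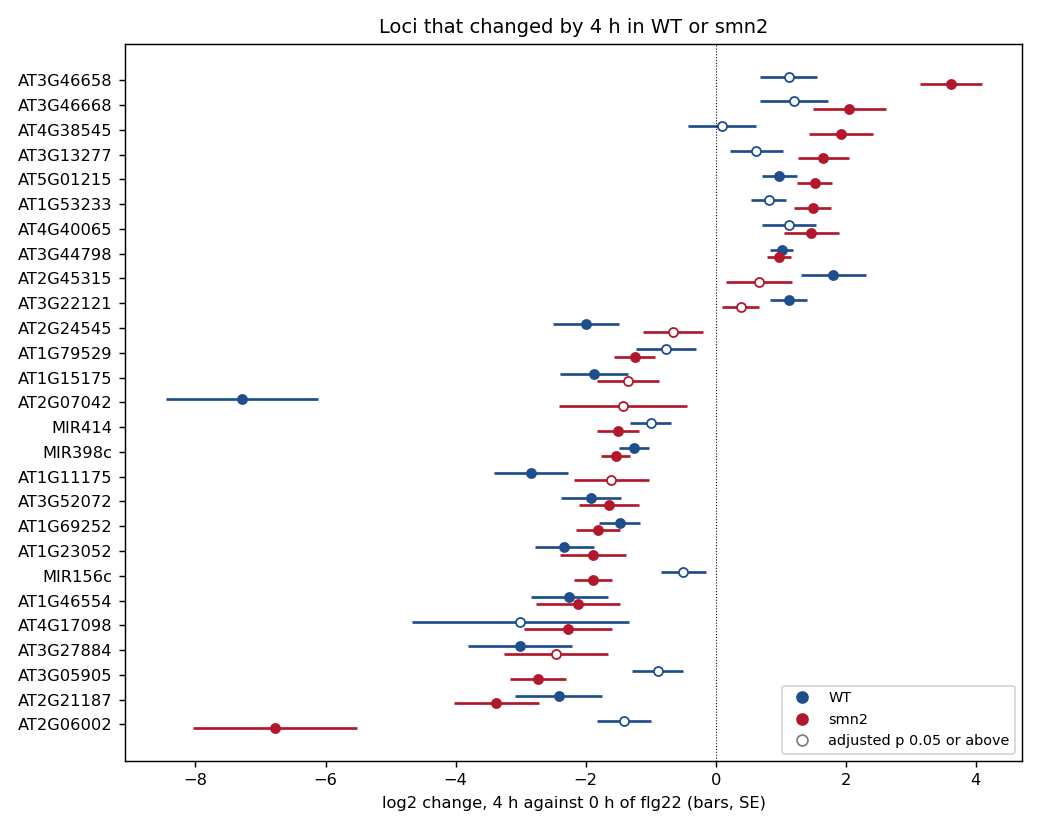
Log2 change from 0 h to 4 h in WT and in smn2 for the 27 loci that passed in either genotype, with standard errors. Open symbols did not pass the test. MIR398c lies below 0 and AT3G44798 above 0 in both genotypes, with filled symbols.

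Whether the 4 h change differed between genotypes was tested directly. No locus passed, among the 311 or among all 19649, in edgeR, and DESeq2 called 0 of the 311. At an unadjusted p under 0.05 the edgeR test had 16 of the 311, beside 847 loci (4.31%) in all. The differences for MIR156c (-1.39) and AT3G46658 (2.49, adjusted p = 0.799) were among those that did not pass, so a change called in 1 genotype is not shown to be absent from the other.

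The proteins that make or process these RNAs were looked up in 6 lists. In smn2, 1 of 18 genes of the miRNA and trans-acting siRNA pathway passed, RDR6, the polymerase that makes double-stranded RNA from TAS transcripts (0.77 ± 0.12, edgeR adjusted p = 0.0135). Of 11 genes of the nuclear exosome and its cofactors, AT1G21580 rose (1.03, adjusted p = 0.0234) and HEN2 itself fell. At 4 h, when 10.1% of all tested loci were higher in WT and 12.6% in smn2, 7 of the 11 tested snoRNP proteins rose in WT and 7 in smn2, where the list medians were 0.96 and 1.11, beside -0.01 and -0.04 over all tested loci. They included NOP56, a core protein of box C/D particles (1.40 and 1.37), CBF5, the pseudouridine synthase of box H/ACA particles (0.96 and 1.15), and NUC1, a nucleolin (1.73 and 1.88). Of 9 tRNA processing genes, 4 rose in WT and 3 in smn2, among them TRZ3, a tRNA 3′ endonuclease (1.74 and 1.58). Of 3 genes of RNA polymerase III, its subunits NRPC1 and NRPC2 and its repressor AT5G13240, NRPC2 rose in both (0.89 and 0.98), and of 5 genes for snRNA 3′ ends and Sm-like proteins none passed in any comparison.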

How the data were processed

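Gene reads were deposited by the authors as counts per locus, total and uniquely placed, for 8 libraries, beside RPKM values and the authors' false discovery rates (p-values corrected by a method not given), per the file headers. Libraries were poly(A)-selected and sequenced on Ion Proton, with replicate numbers 910 and 918 marking separate runs, per the file headers. The build was TAIR 10, per the submitters' processing notes. Mapper, annotation release and strand setting: not given in the sources used here.

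Total gene read counts were tested with edgeR 4.0.16 (R 4.3.3): TMM scaling, filterByExpr, 1 quasi-likelihood fit with the 4 groups over 8 libraries (4 residual degrees of freedom), Benjamini-Hochberg adjustment over 19649 loci and a threshold of 0.05. Nothing but the design text's word that replicates are biological describes their source, so p-values measure the spread between these samples. Standard errors are those of the fit; counting intervals are 95% and cover counting error only. Scripts were tested on simulated counts.

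Members and gene lists were chosen with earlier results of these data known. Named were the 10 largest calls in each direction for the mean genotype difference, the 5 largest for other comparisons, the 2 most abundant loci per class, and fixed miRNA, TAS and U3 names. Other called loci, the U2, U1.5, U12 and U4.2 loci, MIR414 and the lower lncRNA calls among them, were named after their values were seen. The replicate block was accepted because the headers give each number a shared run; deviations of same-numbered libraries correlated at 0.0636 to 0.49 over all tested loci and 0.226 to 0.528 over the 311. Alternatives were DESeq2 1.42.0, DESeq2 size factors, other count filters, uniquely placed reads, leaving out rRNA and organelle loci, summed overlapping loci (added after seeing the data), the block, and each library left out. One sequence of a named locus is not reported here.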

Additional observations from a re-analysis of the deposited data

How the results depend on the processing

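Numbers of called loci among the non-coding loci, in the order mean genotype difference, genotype at 0 h, genotype at 4 h, WT at 4 h, smn2 at 4 h and difference of the 4 h changes, were 29, 12, 4, 15, 20 and 0. Without a filter on low counts, 80, 65, 43, 41, 49 and 7 were called. DESeq2 called 46, 31 and 20 in the 3 genotype comparisons. The shares of all loci called in these other settings are not given, so the counts do not show what is particular to these loci. With the replicate block the first 4 counts were 49, 28, 13 and 23, the fifth 30, and the sixth 0; no named call was lost with the block. Leaving out overlapping loci gave 14, 6, 1, 6 and 8. Summing overlapping loci, an alternative chosen after seeing the data, gave 7 for genotype at 4 h, 59 for WT at 4 h and 70 for smn2 at 4 h, since a locus then takes the call of its partner; AT5G06865 turned to -0.10 and AT2G45315, raised by 1.81 in WT at 4 h, to -0.0083. Uniquely placed reads gave 9 for WT at 4 h and 13 for smn2 at 4 h. Leaving out 1 library gave 12 to 31, 2 to 11, 0 to 7, 4 to 19, 13 to 23 and 0 to 0. Of 83 named results, 3 lost their call in DESeq2, 13 with overlapping loci summed, the 2 that turned included, and 12 of 65 with uniquely placed reads; none did with DESeq2 size factors, other filters or without rRNA. Most of these loci, 979 of 1290, had too few reads to test, and the reason for this was not tested.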
